A study of Mus musculus with 18 samples.

Results

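Eosinophils stimulated with IFN-γ were compared directly with eosinophils stimulated with *E. coli*. The samples were chosen by their treatment labels and by no measured value: 3 libraries with IFN-γ and 3 libraries with *E. coli*, 6 of the 18 samples of the series. A further 3 libraries of unstimulated cells, a to c, gave the reference level, so that responses in opposite directions could be told from responses of different size. The 3 libraries that received both stimuli entered the same fit to estimate the spread, which thus rests on 12 libraries. The full series holds mouse eosinophils left unstimulated or given IL-4, IFN-γ, *E. coli* or the last 2 together. The paper treats IL-4 as a type 2 stimulus and the others as type 1. The cells were washed from the peritoneal cavity of mice with an *Il5* transgene on the C57BL/6 background, and cells carrying Thy1.2 or B220 were removed with antibody-coated beads. Such mice overproduce IL-5 and have many eosinophils, so the cells do not come from an animal with ordinary IL-5 levels. The *E. coli* group received heat-inactivated bacteria, the IFN-γ group received 50 ng/ml of the cytokine, the group with both received the 2 together, and these cells were cultured for 18 hours. The culture time of the unstimulated cells is not stated. The labels give strain and treatment but neither the age nor the sex of the mice. The paper speaks of biological replicates, but neither it nor the labels says whether the 3 libraries of a group came from separate cultures or animals, so p-values measure the spread between these samples.

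Eosinophils are granulocytes best known from allergy and worm infection, and they also carry receptors for interferons and for bacterial products. IFN-γ, a cytokine of T cells and natural killer cells, signals through JAK kinases, which leads to the induction of interferon regulatory factors, antigen presentation genes and GTPases that act against intracellular microbes. Heat-inactivated *E. coli* offers lipopolysaccharide and other ligands of Toll-like receptors, which activate NF-κB and MAP kinases and induce inflammatory cytokines and neutrophil-attracting chemokines. In macrophages the pathways are known to reinforce each other at some genes and to oppose each other at others, which is what a direct contrast of the stimuli with a common reference can describe.

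The authors deposited raw counts per Ensembl gene, and levels are given below as CPM (counts scaled to the library total) after TMM normalization, a scaling that sets the bulk of genes equal between libraries. The IFN-γ libraries held from 1654831 to 2006059 counts on genes, with 1859508 as their median. The *E. coli* libraries held from 1980073 to 2734041, median 2318235, and the unstimulated ones from 1562034 to 2419241, median 2211861. The IFN-γ libraries were shallower, with overlapping ranges. In the 6 libraries 3 counts, used as the detection floor, corresponded to 1.00 to 1.96 CPM. The highest count of any gene was 4089 to 4094 in every one of these 6 libraries despite their different totals, next to the 4096 sequences that a molecular identifier of 6 bases can take. Counts near that ceiling understate a level, and 247 genes passed 50% of the highest count in at least 1 of the 12 libraries. Of these, 114 differed between the stimuli, 88 higher with IFN-γ and 26 higher with *E. coli*. Libraries of a group differed by more than counting noise, since chi-square divided by genes ranged from 1.64 to 4.60 for pairs within the 3 groups compared and up to 6.04 with both stimuli. *E. coli* library 3 stood apart, at 3.76 and 4.60 against libraries 1 and 2 and 1.64 between those. Unstimulated library b did so as well, at 4.58 and 4.50 against 2.49. Among the *E. coli* libraries, library 3 held the highest levels of *Csf3*, *Il1b*, *Cxcl1*, *Ccl7* and *Lcn2*. Its mast cell markers summed to 34.6 CPM, against 10.2 and 6.69 CPM. Reads outside annotated genes made up 20.8% to 31.7% of the IFN-γ libraries and 28.6% to 32.8% of the *E. coli* libraries.

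The eosinophil label was checked against marker genes. The 10 eosinophil markers summed to 3519, 3117 and 3533 CPM in the *E. coli* libraries and 4071, 3605 and 4446 CPM in the IFN-γ libraries, led by the eotaxin receptor *Ccr3*. *Siglecf*, the standard surface marker of mouse eosinophils, stood at 659, 622 and 626 CPM with *E. coli* and 654, 534 and 689.9 CPM with IFN-γ. By contrast the granule protein transcripts were scarce: *Prg2* lay between 13.7 and 28.6 CPM and eosinophil peroxidase, *Epx*, had 0 to 2 counts in each of the 6 libraries. The label thus rests on *Ccr3*, *Siglecf* and the lipoxygenase *Alox15*, not on granule genes.

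Markers of other cell types were also measured. Summed B cell markers came to 42, 47.5 and 77.5 CPM with *E. coli* and 104, 65.1 and 61.5 CPM with IFN-γ, led by *Ighm*, against 223, 204 and 123 CPM in unstimulated libraries. The stimulus groups overlapped. T cell markers summed to at most 6.91 CPM in the 6 libraries with *Cd8a* at 0, and natural killer cell markers to at most 0.669 CPM, with *Klrb1c*, *Klra8*, *Gzma* and *Eomes* at 0. Macrophage markers summed to 1497, 1346 and 1673 CPM with *E. coli* and 1779, 1725 and 1978 CPM with IFN-γ. Most of that sum was *Adgre1*, which eosinophils also express. Of 9 tested macrophage markers, 3 were higher with IFN-γ and 0 with *E. coli*, where 25.5% of all genes were called. *Timd4* stood at 7.75, 7.69 and 12.8 CPM with *E. coli*, 29.1, 23.1 and 31.4 CPM with IFN-γ and 27.2, 24.1 and 33 CPM unstimulated, while *Gata6* stood at 3.67, 2.01 and 8.39 CPM with *E. coli* and 1.68, 1.54 and 1.31 CPM with IFN-γ. Neutrophil markers summed to 451, 425 and 487 CPM with *E. coli* and 686, 635 and 744 CPM with IFN-γ, led by *Retnlg*, with *Elane* at 0 in all 6. Mast cell markers summed to 10.2, 6.69 and 34.6 CPM with *E. coli* and 30.2, 14.4 and 13.1 CPM with IFN-γ, led by *Tpsb2* with *Ms4a2* at 0, and dendritic cell markers to 5.71, 10 and 8.39 CPM with *E. coli* and 9.52, 7.18 and 6.54 CPM with IFN-γ, with *Xcr1* the highest. In bulk RNA, fewer cells of a type and less RNA per cell cannot be told apart.

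The stimuli left eosinophils with clearly different transcriptomes. Of 9883 genes with enough counts to test, out of 55029 in the files, 1393 were higher with IFN-γ (14.1%) and 1132 were higher with *E. coli* (11.5%), together 2525 or 25.5%. Calls come from quasi-likelihood F tests in edgeR and an adjusted p (Benjamini-Hochberg, all tested genes) below 0.05. A factor of 2 or more separated the groups for 635 of the former and 392 of the latter. The 3 IFN-γ libraries and the 3 *E. coli* libraries did not overlap for 1366 and 1118 of the called genes, and for 42.8% of all tested genes. The median difference over all tested genes, given below as log2 IFN-γ minus *E. coli* so that positive values are higher with IFN-γ, was -0.02. A value with ± and no unit is such a direct difference with its SE, and a level with ± is a mean with its SD of 3 libraries. When libraries were scaled by their totals only, the median moved by -0.15 and the split turned to 1062 higher with IFN-γ and 1937 higher with *E. coli*. The share of called genes on the IFN-γ side was then 35.4% in place of 55.2%. Small differences are therefore relative to the scaling.

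Against unstimulated cells, IFN-γ raised 1541 genes (15.6%) and lowered 1579 (16%), which became 970 and 2448 under totals-only scaling. *E. coli* raised 1337 (13.5%) and lowered 1649 (16.7%). These shares, and the 25.5% called directly, are the reference for counts of list members below. Both contrasts share the same 3 unstimulated libraries. The unstimulated level sorted the 2525 genes as follows. Opposite responses made up 224 genes: 151 were raised with IFN-γ and lowered with *E. coli*, with a median direct log2 difference of 1.83, and 73 were raised with *E. coli* and lowered with IFN-γ, with a median of -1.67. Responses in the same direction but of different size made up 193 raised genes, of which 119 were higher with IFN-γ and 74 higher with *E. coli*. Another 171 genes were lowered with both, 85 to a lower level with *E. coli* and 86 to a lower level with IFN-γ. A further 1543 genes passed against unstimulated cells with 1 stimulus, and 394 passed in the direct contrast alone. The median direct difference of same-direction genes was 0.81 and -0.68 among those raised and 0.78 and -0.79 among those lowered. Genes that differed between the stimuli were thus most often called against unstimulated cells with 1 stimulus only.

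The class sizes depended on single libraries. Without unstimulated library a the opposite classes held 100 and 40 genes, and without library c the second held 48. Genes raised with both and higher with *E. coli* numbered 41, 41 and 47 without IFN-γ libraries 1, 2 and 3 and 49 without unstimulated library a. Genes lowered with both and lower with *E. coli* numbered 53, 45 and 48 without IFN-γ libraries 1, 2 and 3, 54 without *E. coli* library 2 and 55 without unstimulated library a. Genes lowered with both and lower with IFN-γ numbered 45 and 52 without IFN-γ libraries 2 and 3, 41, 47 and 55 without *E. coli* libraries 1, 2 and 3, and 56 without unstimulated library a. Each such fit has fewer samples.

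The genes furthest apart on the IFN-γ side were a T cell chemokine, interferon-inducible GTPases and an inhibitory receptor. *Cxcl9* (ENSMUSG00000029417, chr5:92321347-92328079), a ligand of CXCR3 that attracts activated T cells, stood at 339, 339 and 358 CPM with IFN-γ and 6.12, 1.67 and 3.46 CPM with *E. coli*, against 1.86, 1.9 and 5.78 CPM unstimulated. *E. coli* left it near its unstimulated level, while all 3 IFN-γ libraries were far above. The direct difference was 6.55 ± 0.29 (SE), or 93.5-fold (edgeR adjusted p = 5.21e-12, n = 3 per group). *Lair1* (ENSMUSG00000055541, chr7:4003402-4063204), which encodes an inhibitory collagen receptor, moved in both directions: 19.7, 11.4 and 17.3 CPM unstimulated, 8.16, 5.02 and 5.43 CPM with *E. coli* and 229, 257 and 226 CPM with IFN-γ. It rose by 3.83 on the log2 scale with IFN-γ (edgeR adjusted p = 2.47e-11) and changed by -1.43 with *E. coli* (edgeR adjusted p = 0.000744), a direct difference of 5.25 ± 0.22. *Clic5*, a chloride intracellular channel family member, followed the *Cxcl9* pattern with 172 ± 27.4 CPM (SD, n = 3) under IFN-γ and 6.7 ± 2.11 CPM under *E. coli*. The serine protease inhibitors *Serpina3g* and *Serpina3f* had 0 to 3 counts per *E. coli* library, so their distance is a ratio with a counting interval: 29.4 (95% exact interval 11.1 to 111) and 23.5 (9.69 to 74.4). Intervals and floors of this kind cover counting error only, and these genes share near-identical stretches with each other or with *Serpina3i*. *Focad*, with 44, 31 and 25 counts under IFN-γ and 3, 1 and 0 under *E. coli*, had a ratio of 35.4 (13.4 to 133). Over the alternative fits the direct difference was 4.57 to 6.18 for *Focad* and 4.04 to 5.21 for *Serpina3f*.

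Other genes also had opposite responses on the IFN-γ side. *Serpinb1a*, an inhibitor of neutrophil-type serine proteases, stood at 49.6, 37.4 and 47.5 CPM unstimulated, 10.2, 13.4 and 19.7 CPM with *E. coli* and 246, 255 and 290.4 CPM with IFN-γ. The 3 groups did not overlap, and the direct difference was 4.21 ± 0.19. *Ramp3*, which modifies calcitonin-type receptors, and the channel-family gene *Calhm6* had direct differences of 4.27 ± 0.54 and 4.20 ± 0.38 (3.56 to 5.22 and 3.84 to 4.88 over the alternative fits), from means of 1.7 ± 1.73 and 1.32 ± 0.999 CPM with *E. coli* to 29.5 ± 13.5 and 23.4 ± 1.83 CPM with IFN-γ. The predicted gene *Gm12216* gave 4.90 ± 0.36.

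On the *E. coli* side the furthest genes included an IL-10 family cytokine, a granulocyte growth factor, a lymphoid transcription factor and a carbonic anhydrase. *Il19* (ENSMUSG00000016524, chr1:130932656-130940115) had 111, 146 and 189 counts in the *E. coli* libraries, 2, 0 and 0 in the IFN-γ libraries and 5, 3 and 7 in unstimulated ones. The ratio of *E. coli* to IFN-γ was 157 (95% exact interval 43.3 to 1303). Over the alternative fits the direct difference of *Il19* was -9.97 to -6.53. *Csf3* (ENSMUSG00000038067, chr11:98701263-98703629), the growth factor G-CSF that drives neutrophil production, stood at 44.1, 52.5 and 114 CPM with *E. coli*, 2.8, 0.513 and 1.96 CPM with IFN-γ and 5.22, 3.8 and 6.61 CPM unstimulated. Every *E. coli* library exceeded every other library of these 3 groups, and the direct difference was -5.28 ± 0.50, from -5.91 to -4.77 over the alternative fits (edgeR adjusted p = 1.82e-07). *Spint1*, a membrane protease inhibitor, had 45, 50 and 34 counts with *E. coli* and 0, 0 and 1 with IFN-γ, a ratio of 91 (16 to 3621). Its direct difference was -8.16 to -5.57 over the alternative fits.

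Several of these genes moved in opposite directions. *Car4* (ENSMUSG00000000805, chr11:84957786-84966044), a membrane-bound carbonic anhydrase, stood at 596, 771 and 599 CPM unstimulated, 1316, 1150.2 and 1361 CPM with *E. coli* and 47, 59.5 and 63.4 CPM with IFN-γ. It rose with *E. coli* (log2 0.96, edgeR adjusted p = 1.72e-05) and fell with IFN-γ (log2 -3.53, edgeR adjusted p = 9.37e-12), so the stimuli ended 22.5-fold apart, with log2 -5.40 to -4.38 over the alternative fits. Its counts with *E. coli* passed 50% of the ceiling, so the *E. coli* level may be understated. *Ikzf4* (ENSMUSG00000002578, chr10:128630843-128645991), which encodes the Ikaros family factor Eos, went from 23.1, 17.7 and 27.7 CPM unstimulated to 60, 67.9 and 62.7 CPM with *E. coli* and 3.92, 3.08 and 0.654 CPM with IFN-γ, a direct difference of -4.55 ± 0.30. *Ccn3*, a matricellular growth regulator, gave -5.60 ± 0.27 from means of 85.9 ± 1.61 and 1.69 ± 0.485 CPM, with 26.6 ± 3.98 CPM unstimulated. *Lama5*, a laminin chain, and the transcript *U90926* had 144 ± 13.3 and 149 ± 65.2 CPM with *E. coli* against 4.93 ± 2.53 and 2.35 ± 0.871 CPM with IFN-γ. *Cxcr2*, the receptor of the neutrophil-attracting CXC chemokines, stood at 30.2, 22.8 and 25.6 CPM unstimulated, 97.5, 83.9 and 83.9 CPM with *E. coli* and 5.6, 9.23 and 8.5 CPM with IFN-γ. All 3 groups were apart, with a direct difference of -3.50 ± 0.23. Of 4 tested neutrophil markers, *Cxcr2* among them, 2 were higher with IFN-γ and 1 with *E. coli*. *Saa1*, an acute-phase protein nearly identical to *Saa2*, had a ratio of 13.7 (5.67 to 43.1) in favour of *E. coli*. Its direct difference was -4.50 to -3.01 over the alternative fits.

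**Figure D1:**
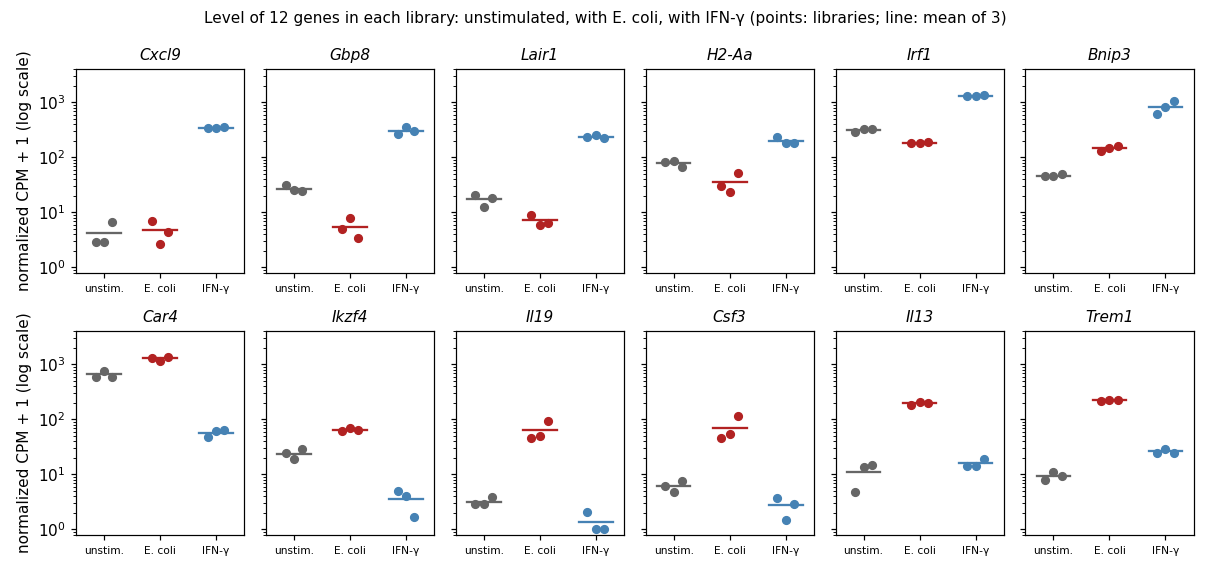
Normalized level of 12 genes in each library, on a log axis of CPM plus 1, for unstimulated cells, *E. coli* and IFN-γ. Points are libraries (n = 3 per group) and lines are group means. *Cxcl9* and *Gbp8* are high with IFN-γ, *Il19*, *Csf3*, *Il13* and *Trem1* with *E. coli*, and *Car4* and *Ikzf4* lie on opposite sides of the unstimulated level.

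The components of IFN-γ signalling differed along the pathway. The receptor chain *Ifngr2* was higher with *E. coli* (-0.58 ± 0.11), while *Irf1*, *Irf8* and *Batf2* were higher with IFN-γ. *Irf1* (ENSMUSG00000018899, chr11:53770014-53778374), an interferon regulatory factor, stood at 289.5, 322 and 324 CPM unstimulated, 178, 183 and 191 CPM with *E. coli* and 1315, 1293 and 1352 CPM with IFN-γ. It fell with one stimulus and rose with the other, a direct difference of 2.84 ± 0.11 (edgeR adjusted p = 6.66e-13). *Irf8* and *Batf2*, partners in interferon-induced transcription, rose with IFN-γ from 16.9 ± 3.09 and 4.22 ± 1.55 CPM to 63.3 ± 14.8 and 21.2 ± 2.62 CPM. The SOCS family, which inhibits cytokine receptors, was divided. *Socs1*, the inhibitor of IFN-γ signalling, rose with both and more with IFN-γ (0.57 ± 0.12), whereas *Socs3* rose with *E. coli* (-1.43 ± 0.22). *Socs2*, an inhibitor tied to growth hormone and IL-5 type receptors through STAT5, stood at 458, 446 and 418 CPM unstimulated, 864, 783 and 883 CPM with *E. coli* and 238, 174 and 171 CPM with IFN-γ. *Cish*, another STAT5 target, was higher with *E. coli* at 348 ± 9.7 against 193 ± 5.94 CPM. Of the 18 tested genes of IFN-γ receptor and JAK-STAT signalling, 9 were higher with IFN-γ and 4 with *E. coli*, with a median direct difference of 0.32 against -0.02 for all genes.

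Interferon-inducible GTPases, which attack vacuoles that hold microbes, had the highest medians of the 32 chosen lists. MHC class II genes and HIF targets likewise had every tested member higher with IFN-γ. All 10 tested guanylate-binding proteins were higher with IFN-γ, with a median of 2.63 (3.25 after correction for the ceiling), and 6 of them were lowered with *E. coli*. *Gbp8* (ENSMUSG00000034438, chr5:105014150-105139540) stood at 30.6, 24.1 and 23.5 CPM unstimulated, 4.08, 7.02 and 2.47 CPM with *E. coli* and 261, 354 and 301 CPM with IFN-γ. The difference of 5.98 ± 0.24 separated every library of the groups (edgeR adjusted p = 1.94e-12). *Gbp2b* had 20, 18 and 17 counts with IFN-γ, 0 counts in each of the 3 *E. coli* libraries and 6, 1 and 8 counts unstimulated, so it was at least 8.51-fold higher with IFN-γ, measured against 3 counts per library. *Gbp4* stood at 751 ± 29.7 against 48.1 ± 11.9 CPM. The members *Gbp4*, *Gbp8*, *Gbp9* and *Gbp11* share exon positions or near-identical stretches, and how reads were split among them is uncertain. All 10 tested immunity-related GTPases were also higher with IFN-γ, with a median of 2.43, of which 4 were raised with IFN-γ and lowered with *E. coli*. *Iigp1* went from 89.8, 55.8 and 94.2 CPM unstimulated to 33.9, 36.4 and 76.5 CPM with *E. coli* and 471, 533 and 481 CPM with IFN-γ. *Gm12250* and *F830016B08Rik* had direct differences of 2.74 and 2.85. *Gm12185*, at 2.37 ± 1.36 and 129.5 ± 7.91 CPM, shares exon positions with *Tgtp1*, and *Tgtp2* is nearly identical to *Tgtp1*.

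Antiviral genes, which type I interferons also induce, were separated mainly by their loss with *E. coli*. Of 51 tested, 32 were higher with IFN-γ and 0 with *E. coli*, also with DESeq2's Wald test, and the median was 0.64. Against unstimulated cells 35 of the 51 were lowered with *E. coli* and 1 raised, beside 16.7% and 13.5% of all genes. IFN-γ raised 14 and lowered 11, beside 15.6% and 16%. *Mx1*, a dynamin-like GTPase against influenza viruses, showed this: 170.3, 229 and 213 CPM unstimulated, 52.6, 57.8 and 84.9 CPM with *E. coli* and 177, 203 and 275 CPM with IFN-γ. It did not pass against unstimulated cells with IFN-γ (edgeR adjusted p = 0.735), and the direct difference was 1.75 ± 0.21. *Ifit3* behaved alike at 497 ± 24.8, 225 ± 116 and 494 ± 26.1 CPM in unstimulated, *E. coli* and IFN-γ cells, although it shares sequence with *Ifit3b*. *Ifit2*, an RNA-binding member of that family, was an opposite case at 151, 131 and 206 CPM unstimulated, 39.6, 41.5 and 64.2 CPM with *E. coli* and 296, 333 and 339 CPM with IFN-γ. *Ifit1bl1* was lowered with both and further with *E. coli* (226 ± 29.5, 28.7 ± 10.3 and 142 ± 16.1 CPM). *Herc6*, an ISG15 ligase, was raised with IFN-γ and lowered with *E. coli*, with a direct difference of 1.86 ± 0.14.

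MHC class I molecules show peptides from inside the cell to CD8 T cells, and class II molecules show peptides from taken-up material to CD4 T cells. IFN-γ raised 17 of 23 tested genes of MHC class I presentation and *E. coli* lowered 13, beside 15.6% and 16.7% of all genes. Of the 23, 19 were higher with IFN-γ and 0 with *E. coli* (20 and 0 with DESeq2's Wald test), with a median of 1.24, and 12 had opposite responses. *Nlrc5*, the transactivator of class I genes, stood at 95.4, 123 and 141 CPM unstimulated, 76.3, 72.9 and 68.1 CPM with *E. coli* and 295, 318 and 392 CPM with IFN-γ. Its direct difference was 2.21 ± 0.16, close to that of the immunoproteasome subunit *Psmb9* at 2.30 ± 0.13, whose exons overlap *Tap1* on the other strand. The peptide editor *Tapbpl* and the peptide transporter *Tap2* had 222 ± 24.7 and 479 ± 21.9 CPM with IFN-γ against 44.1 ± 2.49 and 133 ± 5.31 CPM with *E. coli*.

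All 9 tested MHC class II genes were higher with IFN-γ, with a median of 2.15, and 5 were raised with IFN-γ and lowered with *E. coli*. The listed *H2-DMb2*, *H2-Oa* and *H2-Ob* had too few counts to test, and their counts overlapped between the stimuli. *H2-DMb2* had 2, 3 and 9 counts with *E. coli* and 4, 2 and 1 with IFN-γ. For *H2-Oa* these were 4, 3 and 2 against 8, 6 and 2, and for *H2-Ob* 0, 3 and 3 against 3, 8 and 1. *H2-Aa* (ENSMUSG00000036594, chr17:34282744-34287823), a class II chain, stood at 80.1, 86.2 and 66.5 CPM unstimulated, 29.8, 22.7 and 51.3 CPM with *E. coli* and 233, 179 and 182 CPM with IFN-γ. The 3 groups were apart, with a direct difference of 2.55 ± 0.24 (edgeR adjusted p = 1.35e-07). *Cd74*, the invariant chain, gave 2.15 ± 0.23. *Ciita*, the master regulator of class II genes, had 11, 6 and 7 counts with IFN-γ, 0, 0 and 2 with *E. coli* and 10, 7 and 6 unstimulated, a ratio of 17 (4.22 to 149), and its exons overlap *Dexi*. Over the alternative fits the direct difference of *Ciita* was 3.17 to 6.22. B cells, macrophages and dendritic cells express class II genes as well. The B cell sum was lower with either stimulus than in unstimulated cells as given above, and the dendritic cell sum overlapped between the stimuli. The macrophage sum did not overlap, at 1497, 1346 and 1673 CPM with *E. coli* and 1779, 1725 and 1978 CPM with IFN-γ. Of 9 tested macrophage markers, 3 were higher with IFN-γ and 0 with *E. coli*. The part of these cells in the class II result was not tested.

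Chemokines attract different leukocytes through their receptors, CXCR3 on activated T cells and CXCR2 on neutrophils. Among ligands of CXCR3 and other interferon-linked chemokines, 4 of 5 were higher with IFN-γ and 0 with *E. coli*, with a median of 0.90. DESeq2's Wald test gave 4 and 0, and totals-only scaling and correction for the ceiling gave 3 and 0. Of the 4 calls, 2 were lost in at least 1 fit with a library left out. Beside *Cxcl9*, *Cxcl11* stood at 54.3, 54.3 and 56.9 CPM with IFN-γ, 9.38, 17.4 and 32.6 CPM with *E. coli* and 34.3, 13.9 and 28.1 CPM unstimulated. All IFN-γ values were above the rest, but its exons overlap *Gm2673* on the other strand. The third CXCR3 ligand, *Cxcl10*, was raised with IFN-γ, had no call with *E. coli* and did not pass directly: 686, 695 and 871 CPM with IFN-γ and 398, 402 and 887 CPM with *E. coli* overlapped, with an interval of -0.10 to 0.94 for the direct difference (edgeR adjusted p = 0.234). It passed without *E. coli* library 3 (log2 0.91), with replicate number as a block and with no filter.

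Of 6 tested neutrophil-attracting CXC chemokines, 3 were higher with *E. coli* and 1 with IFN-γ, with a median of -0.86, and 5 and 1 under totals-only scaling. *Cxcl1* stood at 259, 303 and 518 CPM with *E. coli*, 43.1, 31.3 and 45.1 CPM with IFN-γ and 78.2, 45 and 57 CPM unstimulated. It rose with *E. coli* and did not pass with IFN-γ (edgeR adjusted p = 0.0894), and the direct difference was -3.18 ± 0.25. *Cxcl5* gave -3.77 ± 0.33 from 77 ± 33.4 and 5.65 ± 1.86 CPM. *Cxcl2* was raised with both and more with *E. coli* (772 ± 191 against 359.7 ± 43.1 CPM). *Cxcl3*, their close relative, rose to a like extent: 1161, 1114 and 1380.0 CPM with *E. coli* and 933, 1057 and 1177 CPM with IFN-γ from 124, 106 and 152 CPM unstimulated, with an interval of -0.49 to 0.08 for the direct difference. Its counts passed 50% of the highest count, and it was called higher with *E. coli* under totals-only scaling and after correction of the counts for the ceiling. The platelet chemokine *Ppbp* was higher with IFN-γ (0.68 ± 0.18) and raised with both. Among 10 tested CC chemokines, 4 were higher with *E. coli* and 2 with IFN-γ, with a median of 0.38 that turned to -0.12 after correction of the counts for the ceiling. *Ccl7*, a monocyte attractant, was opposite, at 100.2, 86.8 and 95.8 CPM unstimulated, 142, 164 and 348 CPM with *E. coli* and 47.6, 50.2 and 49 CPM with IFN-γ. *Ccl4*, a chemokine made by activated myeloid cells, stood at 617 ± 277 CPM with *E. coli* and 153 ± 14.4 CPM with IFN-γ, and *Ccl2* and *Ccl3* had direct differences of -1.35 and -1.17. On the other side *Ccl22*, a ligand of CCR4, rose with IFN-γ (24.4 ± 15.2 against 7.68 ± 3.19 CPM, log2 1.04 to 1.98 over the alternative fits), and *Ccl8* was lowered with *E. coli* (6.43 ± 2.77, 2.14 ± 1.15 and 10.5 ± 0.728 CPM in unstimulated, *E. coli* and IFN-γ cells).

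Promoters of the chemokines are printed because *Cxcl9* and *Cxcl10* are neighbours on chromosome 5 with unlike direct differences, and *Cxcl1* and *Cxcl2* are neighbours that were higher with *E. coli*. They are RefSeq sequences of GRCm38.p6, 250 bases before to 50 bases after the gene start, 5′ to 3′ on the gene's strand. *Cxcl5*, which has no entry, is named only, and *Cxcl2* is shown in its place. Capitals mark letters GAAANNGAA of an interferon-stimulated response element or GGANNTTCC of a κB element, searched on both strands with TTCNNNGAA of a gamma-activated site (GAS), which has no match in these 4 windows.
*Cxcl9*, chr5:92328030-92328329, minus strand: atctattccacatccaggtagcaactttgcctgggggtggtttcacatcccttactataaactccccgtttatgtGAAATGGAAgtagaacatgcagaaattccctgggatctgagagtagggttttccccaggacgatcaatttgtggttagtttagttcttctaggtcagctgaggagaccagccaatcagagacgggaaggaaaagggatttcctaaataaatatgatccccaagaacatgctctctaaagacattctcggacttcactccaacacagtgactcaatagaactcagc
*Cxcl10*, chr5:92348840-92349139, minus strand: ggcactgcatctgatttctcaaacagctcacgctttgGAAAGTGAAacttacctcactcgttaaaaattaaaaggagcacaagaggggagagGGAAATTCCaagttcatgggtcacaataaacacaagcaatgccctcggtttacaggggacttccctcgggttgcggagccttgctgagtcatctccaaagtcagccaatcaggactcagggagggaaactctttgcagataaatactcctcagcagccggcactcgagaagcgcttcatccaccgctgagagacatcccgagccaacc
*Cxcl1*, chr5:90890995-90891294, plus strand: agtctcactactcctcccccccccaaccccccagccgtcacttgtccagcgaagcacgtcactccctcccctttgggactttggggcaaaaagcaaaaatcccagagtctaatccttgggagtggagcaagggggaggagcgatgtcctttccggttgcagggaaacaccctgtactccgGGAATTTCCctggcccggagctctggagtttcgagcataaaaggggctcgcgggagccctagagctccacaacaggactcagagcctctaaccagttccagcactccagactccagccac
*Cxcl2*, chr5:90903649-90903948, plus strand: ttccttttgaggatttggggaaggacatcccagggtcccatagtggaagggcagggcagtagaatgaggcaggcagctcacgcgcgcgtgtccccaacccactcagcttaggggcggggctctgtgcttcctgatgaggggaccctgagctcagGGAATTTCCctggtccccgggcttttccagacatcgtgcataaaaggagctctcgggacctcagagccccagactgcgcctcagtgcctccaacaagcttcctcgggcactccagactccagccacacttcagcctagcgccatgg
By these exact letters, *Cxcl9* holds a response element match and no κB match, and *Cxcl10* holds 1 of each. *Cxcl1* and *Cxcl2* hold a κB match and no response element match. Over 32851 promoters of 27025 genes, 8.56% hold the response element letters, 4.26% the κB letters and 8.30% the GAS letters. Of 25 listed chemokines, 16 had a promoter, of which 3 held the response element letters, 5 the κB letters and 1 the GAS letters. Among guanylate-binding proteins, 5 of 11 had a promoter, and 5, 2 and 2 genes held them in that order. For 5 interferon regulatory factors the numbers were 1, 0 and 3. For NF-κB subunits and inhibitors, with 11 of 15 matched, they were 2, 3 and 3. A match is a description of letters in this window and says nothing of binding. Other spellings of these elements were not searched, so a window without a match may still hold an element.

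Of 18 tested inflammatory cytokines and related genes, 9 were higher with *E. coli* and 5 with IFN-γ, with a median of -0.40. Together these were 77.8% beside 25.5% of all genes, and DESeq2's Wald test gave 8 and 5. The list also holds *Il10*, *Il19* and the receptor *Il1r2*. *Il1b* stood at 396, 403 and 723 CPM with *E. coli*, 108, 107 and 91.6 CPM with IFN-γ and 62.6, 39.3 and 47.1 CPM unstimulated. Both stimuli raised it, and the *E. coli* libraries were all above the IFN-γ libraries (-2.31 ± 0.21, edgeR adjusted p = 7.68e-08), with the reservation that its exons overlap the antisense gene *Il1bos*. *Il6* and *Il1a* followed, with direct differences of -1.80 ± 0.18 and -1.72 ± 0.19. *Tnf* rose with *E. coli* from 15 ± 1.93 to 86.2 ± 19.1 CPM and stood at 22.2 ± 2.45 CPM with IFN-γ, where it did not pass against unstimulated cells (edgeR adjusted p = 0.0815). *Il10*, an anti-inflammatory cytokine, was likewise on the *E. coli* side (-3.23 ± 0.43). The IFN-γ side held cytokines and receptors of other kinds. *Il15*, which supports natural killer and memory T cells, stood at 36.4, 41 and 34.7 CPM with IFN-γ, 3.67, 5.02 and 10.4 CPM with *E. coli* and 11.9, 5.07 and 11.2 CPM unstimulated. *Il12b*, the shared subunit of IL-12 and IL-23, had 30, 10 and 3 counts with IFN-γ, 2, 2 and 1 with *E. coli* and 0, 0 and 2 unstimulated, a ratio of 12.2 (4.84 to 39.4). Over the alternative fits the direct difference of *Il12b* was 2.36 to 4.72. *Il1r2*, the decoy receptor of IL-1, was raised with both and more with IFN-γ (287 ± 88.3 against 82.5 ± 6.25 CPM), while the ligands *Il1a* and *Il1b* were higher with *E. coli*. *Tnfsf10*, the death ligand TRAIL, was lowered with *E. coli* (1.98 ± 0.32). *Il33*, an alarmin, rose with both from 0.138 ± 0.238 CPM to 8.09 ± 4.77 CPM with *E. coli* and 6.19 ± 1.88 CPM with IFN-γ, and the direct interval of -1.17 to 0.57 does not tell the stimuli apart.

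Type 2 cytokines, best known from T helper 2 cells and innate lymphoid cells, are also made by eosinophils. *Il13* (ENSMUSG00000020383, chr11:53631324-53634702) stood at 184, 209 and 196 CPM with *E. coli*, 13.4, 13.3 and 18.3 CPM with IFN-γ and 3.73, 12.7 and 14 CPM unstimulated. The *E. coli* libraries were far above the rest, with a direct difference of -3.72 ± 0.22 or 13.2-fold (edgeR adjusted p = 3.55e-10). *Il5* stood at 848, 834 and 865 CPM with *E. coli* and 520.0, 515 and 561 CPM with IFN-γ, a difference of -0.67 ± 0.11, but the cells carry an *Il5* transgene and its exons overlap *Gm12214* on the other strand. Of the 3 tested members 2 were higher with *E. coli* and 0 with IFN-γ, also with DESeq2's Wald test, with a median of -0.67, and under totals-only scaling 3.

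Toll-like receptors signal through adaptors to NF-κB, and its targets include inhibitors of the same pathway. Of 15 NF-κB subunits and inhibitors, 3 were higher with *E. coli* and 1 with IFN-γ, 26.7% beside 25.5% of all genes, and the median of 0.06 turned to -0.09 under totals-only scaling. Against unstimulated cells IFN-γ raised 9 of them and *E. coli* raised 9, beside 15.6% and 13.5% of all genes, and 5 rose with both to a like extent. *Nfkbiz*, the nuclear IκB protein that *Il6* induction needs, stood at 117, 115 and 97.8 CPM with *E. coli*, 41.4, 41.5 and 33.4 CPM with IFN-γ and 22.7, 17.1 and 23.5 CPM unstimulated. All *E. coli* values lay above the IFN-γ values (-1.50 ± 0.14), and *Nfkbia*, the classical inhibitor, differed by -0.54 ± 0.12. The kinase adaptor *Ikbkg*, higher with IFN-γ (0.54 ± 0.12), overlaps *G6pdx* on the other strand. Of 18 feedback inhibitors of inflammatory signalling, 7 were higher with *E. coli* and 3 with IFN-γ, with a median of -0.28. *Irak3*, an inhibitory kinase of the Toll-like receptor pathway, stood at 416, 399 and 391 CPM with *E. coli*, 123, 133 and 150.4 CPM with IFN-γ and 67.8, 69.7 and 78.5 CPM unstimulated. The RNase *Zc3h12a*, which degrades cytokine messages, and the early response gene *Ier3* had direct differences of -1.28 and -1.11, while *Zfp36*, another destabilizer of cytokine messages, was lowered with *E. coli* (0.58 ± 0.14). *Cyld*, a deubiquitinase, rose with IFN-γ (0.72 ± 0.14).

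Of 19 tested Toll-like receptors and adaptors, 4 were higher with IFN-γ and 0 with *E. coli* (4 and 0 with DESeq2's Wald test), 21.1% beside 25.5% of all genes, with a median of 0.12. Under totals-only scaling the median was -0.03 with 4 and 5 calls. *Tlr6*, a co-receptor for lipopeptides, stood at 56, 47.7 and 49 CPM with IFN-γ, 11.8, 11.4 and 12.8 CPM with *E. coli* and 10.1, 11.4 and 16.1 CPM unstimulated. *Cd180*, a Toll-like receptor homologue, went down with *E. coli* to 24.1, 26.4 and 18.8 CPM from 127, 117 and 114 CPM and stayed at 119, 102 and 77.2 CPM with IFN-γ. *Cd14*, the lipopolysaccharide co-receptor, was raised to a like extent, with 726 ± 292 CPM with *E. coli*, 731 ± 36.8 CPM with IFN-γ and an interval of -0.40 to 0.43.

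Inducible transcription factors were higher with IFN-γ in 12 and with *E. coli* in 4 of 25 tested, with a median of 0.48. The list includes *Klf4*, *Egr3*, *Atf3*, *Hes1* and *Crem*, which the paper names from these data as raised in type 1 eosinophils. It also includes *Pou2f2* and *Maff*, named there for *E. coli*, so the counts partly reflect how members were chosen. *Pou2f2*, the octamer factor Oct-2, was opposite and far apart: 33.2, 29.2 and 28.5 CPM unstimulated, 206, 203 and 223 CPM with *E. coli* and 21.3, 20.5 and 13.7 CPM with IFN-γ (-3.49 ± 0.18). *Jun*, an AP-1 subunit, was opposite in the other sense with 73.2 ± 7.53, 34.2 ± 12.1 and 124 ± 24.8 CPM in the same order, and its exons overlap *Junos*. *Klf4*, a Krüppel-like factor of monocytes, stood at 29.7, 36.9 and 27.5 CPM with IFN-γ, 3.26, 2.67 and 5.92 CPM with *E. coli* and 4.1, 5.07 and 3.3 CPM unstimulated. *Atf3*, *Hes1* and *Crem*, which repress inflammatory or cAMP-driven genes, rose with both and more with IFN-γ, by direct differences of 1.67, 1.95 and 1.23. The orphan receptor *Nr4a3* rose with IFN-γ (2.91 ± 0.47), and *Bhlhe40* was lowered by it (-0.87 ± 0.12). *Egr2* rose with both, to 129.9 ± 11.8 CPM with *E. coli* and 109 ± 18.9 CPM with IFN-γ, with a direct interval of -0.59 to 0.06.

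Checkpoint and costimulatory molecules, listed with other surface markers, went both ways. Of 21 tested, 8 were higher with IFN-γ and 5 with *E. coli*, 61.9% beside 25.5% of all genes. The median was 0.15, and -0.00 under totals-only scaling. Single members were far apart. *Cd274*, which encodes PD-L1, stood at 133, 127 and 203 CPM unstimulated, 291, 311 and 355 CPM with *E. coli* and 1027, 1076 and 1029 CPM with IFN-γ. Both stimuli raised it, and the IFN-γ libraries were all higher (1.71 ± 0.14, edgeR adjusted p = 3.07e-08). The costimulator *Cd86* and the scavenger receptor *Cd36* were opposite, at 48.9 ± 5.36 and 71.5 ± 16.3 CPM unstimulated, 30.8 ± 11.6 and 27.6 ± 12 CPM with *E. coli*, and 101 ± 5.64 and 151 ± 20.4 CPM with IFN-γ. *Cd80*, the partner of *Cd86*, did not pass directly (interval -0.68 to 0.05), except without IFN-γ library 3, where the difference was -0.54. *Cd200*, an inhibitory ligand, and the adhesion molecule *Icam1* rose with IFN-γ (1.82 ± 0.30 and 1.28 ± 0.16), and *Cd69*, an early activation marker, with *E. coli* (-0.89 ± 0.17). *Tnfrsf9*, the costimulatory receptor 4-1BB, had 11, 13 and 26 counts with *E. coli* and 1, 2 and 1 with IFN-γ, a ratio of 8.82 (3.24 to 33.6). Its direct difference was -3.38 to -2.45 over the alternative fits.

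Paired and pattern receptors fell on both sides, 8 of 31 higher with IFN-γ and 11 with *E. coli*, with a median of -0.06. Together these were 61.3% beside 25.5% of all genes. *Trem1*, which amplifies Toll-like receptor signals, was raised with both but unequally: 7.08, 10.1 and 8.26 CPM unstimulated, 215, 228 and 219 CPM with *E. coli* and 23.5, 28.2 and 23.5 CPM with IFN-γ. The groups were apart by -3.13 ± 0.13, or 8.76-fold. *Pilra*, an inhibitory receptor with near-identical relatives, rose with *E. coli* (427 ± 22.8 against 87.6 ± 12.2 CPM), and *Tarm1*, an activating one, differed by -0.94 ± 0.19. On the other side *Marco*, a scavenger receptor for bacteria, stood at 165, 162 and 160.2 CPM unstimulated, 46.1, 37.4 and 66.7 CPM with *E. coli* and 339, 318 and 346 CPM with IFN-γ. The Fc receptor *Fcgr4* was opposite as well (2.19 ± 0.23), and the C-type lectin *Clec4n*, Dectin-2, rose with IFN-γ (288 ± 16.1 against 68.4 ± 9.68 CPM). *Clec12a*, an inhibitory lectin, fell with both from 418, 416 and 287 CPM to 28.6, 22.4 and 32.6 CPM with *E. coli* and 50.9, 32.8 and 28.8 CPM with IFN-γ, and the direct interval was -0.01 to 0.92.

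Genes of eosinophil identity and survival receptors went both ways: of 28 tested, IFN-γ lowered 11 and raised 5, beside 16% and 15.6% of all genes, and *E. coli* lowered 8 and raised 7, beside 16.7% and 13.5%. Of the 28, 9 were higher with *E. coli* and 5 with IFN-γ, with a median of -0.11. Totals-only scaling gave 13 and 4 with a median of -0.26, correction for the ceiling 13 and 5 with -0.34, and DESeq2's Wald test 8 and 7. *Il5ra*, the receptor chain for the survival factor IL-5, stood at 208, 154 and 176 CPM unstimulated, 68.5, 69.9 and 73.6 CPM with *E. coli* and 151, 123 and 143 CPM with IFN-γ. Both stimuli lowered it, *E. coli* further (0.98 ± 0.14). *Siglecg*, an inhibitory lectin, and *Tgfbi*, a matrix protein, were lowered with both and further with IFN-γ (539.9 ± 42.3, 304 ± 19.8 and 103 ± 11.6 CPM for *Siglecg* in unstimulated, *E. coli* and IFN-γ cells). *Siglece*, another inhibitory lectin, fell with IFN-γ from 63.3, 47.5 and 29.3 CPM to 8.96, 6.66 and 3.92 CPM and stood at 69.3, 53.5 and 49.9 CPM with *E. coli*. The ribonuclease *Ear6* was opposite to *Itga4*, the integrin chain of VLA-4: *Ear6* stood at 36.6 ± 8.57, 87.5 ± 6.59 and 18.7 ± 2.03 CPM and *Itga4* at 323 ± 38.8, 93.8 ± 13.4 and 423 ± 18.7 CPM in unstimulated, *E. coli* and IFN-γ cells. *Siglecf* was lowered with both stimuli and had no call between them. *Ccr3* and *Alox15* had no call either, but their counts passed 50% of the highest count in all 6 libraries, where a difference may be hidden.

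Glucose metabolism and the targets of HIF, the oxygen-sensing transcription factor, were on the IFN-γ side. Of 22 tested HIF targets, 22 were higher with IFN-γ, with a median of 1.48, and under totals-only scaling 21. Both stimuli raised 13 of them, so that many were differences of size and not of direction. The count covers tested genes only, and the filter can keep a gene near 0 with 1 stimulus, as *Stc2* below was with *E. coli*. *Car9*, a listed target with too few counts to test, did not follow the others. It had 18, 7 and 18 counts unstimulated, 3, 2 and 4 with *E. coli* and 1, 1 and 2 with IFN-γ. *Bnip3*, a mitophagy receptor, stood at 45.1, 44.4 and 47.9 CPM unstimulated, 132, 146 and 163 CPM with *E. coli* and 616, 832 and 1044 CPM with IFN-γ. The direct difference was 2.50 ± 0.16 (edgeR adjusted p = 6.07e-10), with reads that near-identical pseudogenes may share. *Vegfa*, the vascular growth factor, stood at 18.3, 18.4 and 26 CPM unstimulated, 107, 122 and 112 CPM with *E. coli* and 307, 433 and 541 CPM with IFN-γ. *Mgarp* and the adenylate kinase *Ak4*, both mitochondrial, rose with IFN-γ and passed with that stimulus alone (3.92 ± 0.39 and 2.74 ± 0.53), with 3.43 to 4.54 for *Mgarp* over the alternative fits. *Stc2*, a secreted glycoprotein, had 5, 19 and 14 counts with IFN-γ and 0, 0 and 1 with *E. coli*, a ratio of 53.9 (9.1 to 2183). Its direct difference was 4.64 to 6.87 over the alternative fits. The cytokine *Mif* differed by 1.30 ± 0.14.

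Of 22 genes of glycolysis and glucose transport, 20 were higher with IFN-γ and 1 with *E. coli* (20 and 0 with DESeq2's Wald test), with a median of 0.87, and 12 were raised with both. *Slc2a3*, the glucose transporter GLUT3, stood at 193, 193 and 211 CPM unstimulated, 169, 146 and 151 CPM with *E. coli* and 504, 782 and 899 CPM with IFN-γ. *Hk3*, a hexokinase of myeloid cells, was opposite, with a direct difference of 2.21 ± 0.19 and exons that overlap *Unc5a*. *Pfkfb3*, which makes the activator of phosphofructokinase, was raised with both (41.9 ± 4.08, 70.3 ± 8.02 and 319.9 ± 96.4 CPM). *Gys1*, which builds glycogen, went from 10.8 ± 4.65 CPM to 39.4 ± 1.81 CPM with *E. coli* and 182 ± 49.1 CPM with IFN-γ.

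The respiratory chain is encoded by nuclear and mitochondrial genes. Of 77 nuclear genes of oxidative phosphorylation, 7 were higher with *E. coli* and 2 with IFN-γ, 11.7% beside 25.5% of all genes. Of the 77, 66 were negative, beside 5133 of all 9883 tested genes, with a median of -0.16. Totals-only scaling gave 31 and 1, with a median of -0.31. *Cyc1* and *Atp5g1* differed by -0.72 ± 0.14 and -0.68 ± 0.14, and *Cox7a2l*, which assembles supercomplexes, by 0.87 ± 0.11. The 13 mitochondrial genes were all positive, beside 4750 of all 9883 tested genes. Of the 13, 11 were called, with a median of 0.48. Totals-only scaling left 6 calls and DESeq2's Wald test 9, and of 7 mitochondrial genes named by rule 5 lost the call in at least 1 alternative fit. Mitochondrial counts made up 2.01% to 2.31% of IFN-γ libraries and 1.57% to 1.86% of *E. coli* libraries, and the deepest *E. coli* library had the lowest share. The highest mitochondrial genes lie near the ceiling, and correction of the counts for it gave 10 calls and a median of 0.45. *mt-Co3*, at 1999, 1811 and 2346 CPM with IFN-γ and 1435, 1228 and 1476 CPM with *E. coli*, is 1 of these. Of 80 cytosolic ribosomal protein genes, 23 were higher with IFN-γ and 0 with *E. coli* (24 and 0 with DESeq2's Wald test), 28.8% beside 25.5% of all genes, with a median of 0.23, and totals-only scaling gave 14 and a median of 0.08.

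Of 19 cholesterol synthesis and uptake genes, 5 were higher with *E. coli* and 0 with IFN-γ (3 and 0 with DESeq2's Wald test), 26.3% beside 25.5% of all genes, with a median of -0.24. *Mvd*, an enzyme of the mevalonate pathway, rose with *E. coli* (38.2 ± 4.69 against 19.1 ± 0.932 CPM). Antioxidant genes under NRF2 gave 6 of 25 higher with IFN-γ and 1 with *E. coli*, 28% beside 25.5% of all genes, and a median of 0.26, with 4 on the *E. coli* side under totals-only scaling. *Hmox1*, heme oxygenase, stood at 1093, 1104 and 1292 CPM with IFN-γ, 382, 398 and 653 CPM with *E. coli* and 442, 409 and 539 CPM unstimulated. *Prdx1* and *Prdx6*, peroxidases, rose with it (1.46 ± 0.17 and 1.10 ± 0.12), with 1.31 to 2.08 for *Prdx1* over the alternative fits. The quinone reductase *Nqo1*, by contrast, was raised with both and more with *E. coli* (258 ± 12.8 against 119 ± 13.3 CPM).

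Enzymes of arginine, tryptophan and NAD metabolism gave 7 of 13 higher with IFN-γ and 2 with *E. coli*, with a median of 1.51. The 2 became 1 with DESeq2's factors or test and 3 under totals-only scaling. *Wars*, the tryptophanyl-tRNA synthetase that IFN-γ is known to induce, stood at 46.6, 66.5 and 59.5 CPM unstimulated, 37.9, 39.8 and 49.9 CPM with *E. coli* and 576, 550.0 and 559.8 CPM with IFN-γ. It fell with *E. coli* (edgeR adjusted p = 0.0386), and the stimuli were 13.3-fold apart. *Nampt*, which makes NAD, rose with IFN-γ from 232 ± 15.1 to 1491 ± 175 CPM and stood at 226 ± 4 CPM with *E. coli*. *Ass1*, which regenerates arginine, rose with IFN-γ (2.54 ± 0.27). *Ido1*, which degrades tryptophan, had 11, 10 and 12 counts with IFN-γ, 2, 4 and 1 with *E. coli* and 5, 2 and 1 unstimulated. *Hdc*, which makes histamine, rose with both to a like extent: 19, 15.8 and 26.8 CPM unstimulated, 123, 145 and 174 CPM with *E. coli* and 166, 181 and 155 CPM with IFN-γ (direct interval -0.10 to 0.48). Of 13 prostaglandin and leukotriene enzymes, 2 were higher with each stimulus, 30.8% beside 25.5% of all genes, with a median of -0.07, and under totals-only scaling 1 with IFN-γ and 3 with *E. coli*. *Ptgs1*, a cyclooxygenase, was opposite at 324 ± 27.8, 485 ± 14.5 and 209 ± 24.8 CPM in unstimulated, *E. coli* and IFN-γ cells. *Ptgs2*, the inducible one, rose with both, to 275 ± 81.3 and 205 ± 4.64 CPM, and did not pass directly (edgeR adjusted p = 0.0857) except without *E. coli* library 1 (log2 -0.56), under totals-only scaling or with no filter. *Alox5*, the leukotriene enzyme, was lowered with IFN-γ (-0.53 ± 0.12).

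Cell survival and death genes went both ways. Of 34 tested, 15 were higher with IFN-γ and 10 with *E. coli*, with a median of 0.21. Some genes known to keep cells alive were raised with *E. coli* and lowered with IFN-γ. *Bcl2l1*, which encodes BCL-XL, stood at 64.8, 75.4 and 74.3 CPM unstimulated, 204, 201 and 207 CPM with *E. coli* and 50.9, 32.3 and 37.3 CPM with IFN-γ. The 3 groups did not overlap, and the direct difference was -2.35 ± 0.14 (edgeR adjusted p = 3.92e-10). *Pim2*, a survival kinase, showed the same order at 127, 143 and 142 CPM unstimulated, 853, 789.7 and 832 CPM with *E. coli* and 54.3, 53.8 and 56.2 CPM with IFN-γ. *Bcl2* and *Bcl2a1d* did so too (-2.22 ± 0.23 and -1.80 ± 0.20), though *Bcl2* overlaps a gene on the other strand and *Bcl2a1d* has near-identical copies. Among genes known to promote death, the BH3-only members *Bcl2l11* and *Bbc3* rose with IFN-γ (1.16 ± 0.17 and 1.68 ± 0.32). The inflammasome caspase *Casp1* was raised with IFN-γ and lowered with *E. coli*, from 224 ± 13.9 CPM to 495 ± 29.1 CPM with IFN-γ and 177 ± 28.3 CPM with *E. coli*. Genes of either kind were called on both sides. Cell survival itself was not measured in these libraries.

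Complement, antimicrobial, lysosomal and adhesion genes completed the lists. Of 15 complement genes 6 were higher with IFN-γ and 1 with *E. coli*, with a median of 0.60; the 1 became 0 with DESeq2's Wald test and 2 under totals-only scaling. *Serping1*, the C1 inhibitor, stood at 17.9, 35.9 and 30.7 CPM with IFN-γ, 2.04, 1.34 and 1.97 CPM with *E. coli* and 0.373, 0 and 1.24 CPM unstimulated. *C3* was opposite (46.9 ± 13.2, 21.2 ± 8.22 and 92.9 ± 15 CPM in unstimulated, *E. coli* and IFN-γ cells), and *C1qb*, a macrophage product, rose with IFN-γ (1.46 ± 0.23). Macrophage markers are given above; the part of macrophages in the *C1qb* and lysozyme results was not tested. Of 19 antimicrobial genes 6 were higher with IFN-γ and 5 with *E. coli*, with a median of -0.12, and the 5 became 9 under totals-only scaling and 8 after correction for the ceiling. *Lcn2*, which binds bacterial siderophores, was opposite at 104, 180.0 and 188 CPM unstimulated, 374, 378 and 717 CPM with *E. coli* and 72.2, 63.6 and 54.3 CPM with IFN-γ. *Lyz2*, lysozyme, and *Retnlg* were lowered with *E. coli* (1.11 ± 0.20 and 1.10 ± 0.12). *Ifitm1* was raised with both and more with *E. coli* (1484 ± 172 against 588 ± 106 CPM), with a direct difference of -1.34 that became -2.46 after correction for the ceiling. Of 31 lysosomal genes 16 were higher with IFN-γ and 2 with *E. coli*, with a median of 0.38, and the 2 became 4 under totals-only scaling. *Gm2a*, the ganglioside activator, was raised with both (84.2 ± 13.5, 124 ± 14 and 428 ± 67.5 CPM), and the protease *Ctsb* was opposite (1.07 ± 0.18). Of 21 integrin, adhesion and matrix genes 7 were higher with IFN-γ and 4 with *E. coli*, with a median of 0.24. *Itgb7*, which pairs with *Itga4* in gut homing, fell with *E. coli* from 329, 390.4 and 311 CPM to 129.7, 107 and 120.5 CPM and stood at 443, 362 and 471 CPM with IFN-γ. The proteases *Mmp9* and *Mmp14* went apart, *Mmp9* higher with IFN-γ (0.99 ± 0.15) and *Mmp14* with *E. coli* (-1.51 ± 0.35).

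**Figure D2:**
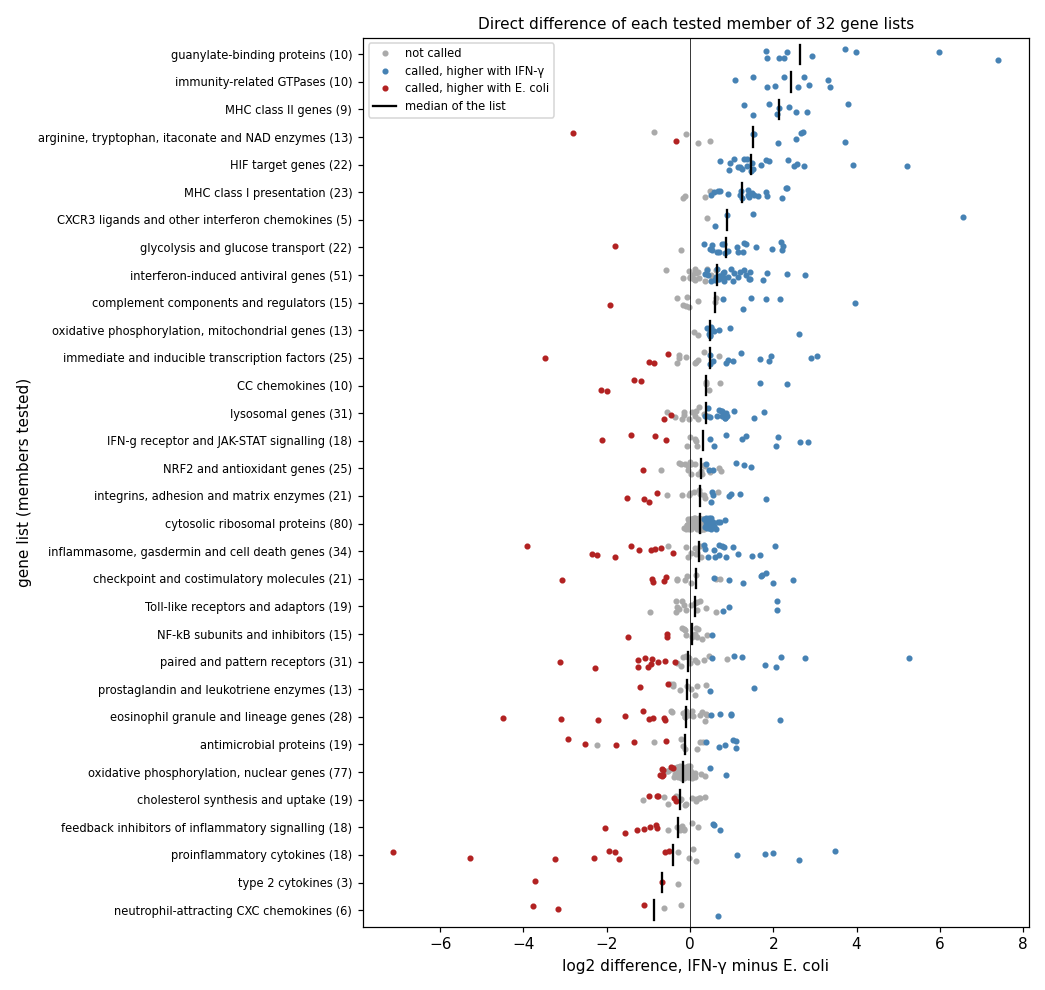
Direct log2 difference, IFN-γ minus *E. coli*, of each tested member of the 32 gene lists, sorted by list median. Points are genes: grey not called, blue called higher with IFN-γ, red called higher with *E. coli*, and the black tick is the median. Guanylate-binding proteins have the highest median, 2.63 (3.25 after correction for the count ceiling), and neutrophil-attracting chemokines the lowest, -0.86. Under totals-only scaling the medians of NF-κB, Toll-like receptor and checkpoint genes turn below 0, and after correction for the count ceiling that of CC chemokines does.

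Many genes that both stimuli raised did not differ between them. Of 610 genes raised with both, 417 had no direct call, and for 341 the 95% interval of the direct difference lay within a factor of 1.5 either way, which is called a like extent here. *Smpd5*, a sphingomyelinase that overlaps *Oplah*, went from 5.59, 4.44 and 3.72 CPM unstimulated to 40.8, 38.5 and 36 CPM with *E. coli* and 31.3, 44.6 and 48.4 CPM with IFN-γ, with an interval of -0.24 to 0.44. The cystine transporter *Slc7a11* and the phosphatase *Dusp5* had intervals of -0.48 to 0.07 and -0.45 to 0.16, although *Slc7a11* was called higher with *E. coli* under totals-only scaling. Without unstimulated library a the number raised to a like extent was 200. Of 814 genes lowered with both, 643 had no direct call and 224 were lowered to a like extent. Totals-only scaling gave 202 raised and 346 lowered to a like extent. *Alox12e*, a lipoxygenase, fell from 130.4, 129 and 86.3 CPM to 33.9, 33.4 and 32.6 CPM with *E. coli* and 39.7, 39.5 and 36.6 CPM with IFN-γ. *Mylk*, myosin light chain kinase, and *Nlrp12*, an inhibitory NOD-like receptor, had intervals of -0.46 to 0.54 and -0.32 to 0.47. The number lowered to a like extent was 134, 121 and 135 without IFN-γ libraries 1, 2 and 3, and 142 and 131 without *E. coli* libraries 1 and 2.

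Further genes responded to both stimuli in 1 direction but unequally. Among genes raised with both, *Peg10*, an imprinted gene of retroviral origin, stood at 3.35, 1.27 and 0.826 CPM unstimulated, 65.7, 69.5 and 66.2 CPM with *E. coli* and 5.04, 4.61 and 5.23 CPM with IFN-γ. The direct difference of -3.75 ± 0.23 was in favour of *E. coli*, as was that of the Rac activator *Tiam1* (-2.47 ± 0.22). *Tnfaip2*, which takes part in membrane protrusions, was higher with IFN-γ (2.17 ± 0.13). Among genes lowered with both, *Tmem86a*, a lysoplasmalogenase, stood at 65.6, 71 and 69.4 CPM unstimulated, 6.53, 8.69 and 7.9 CPM with *E. coli* and 48.7, 36.4 and 38.6 CPM with IFN-γ. *Cd34*, an adhesion sialomucin of eosinophils and progenitors, and *Gm31520* were likewise lower with *E. coli* (1.99 ± 0.43 and 3.44 ± 0.41). The adrenergic receptor *Adra2a* was lower with IFN-γ, at 113, 114 and 71.4 CPM unstimulated, 54.7, 45.5 and 47.9 CPM with *E. coli* and 6.16, 10.3 and 6.54 CPM with IFN-γ. The lysophospholipid transporter *Spns3* followed (-2.11 ± 0.34).

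Of the 257 genes named by rule, 104 share exon positions with another gene or hold a stretch nearly identical to one: 55 on the opposite strand, 15 on the same strand and 68 by sequence. The sources do not state whether counting used strand, so reads of such pairs cannot be told apart and those levels are uncertain. Among genes with values above this holds for *Ak4*, *Ass1*, *Atp5g1*, *Batf2*, *Bcl2*, *Bcl2a1d*, *Bhlhe40*, *Bnip3*, *Cd180*, *Cd274*, *Cd34*, *Cd74*, *Ciita*, *Cish*, *Cox7a2l*, *Crem*, *Ctsb*, *Cxcl10*, *Cxcl11*, *Cxcr2*, *Dusp5*, *F830016B08Rik*, *Focad*, *Gbp4*, *Gbp8*, *Gm12185*, *Gys1*, *Herc6*, *Hk3*, *Icam1*, *Ifit3*, *Ifitm1*, *Ikbkg*, *Ikzf4*, *Il1a*, *Il1b*, *Il5*, *Irak3*, *Irf1*, *Itga4*, *Jun*, *Lair1*, *Lyz2*, *Mif*, *Mylk*, *Nlrc5*, *Nlrp12*, *Pilra*, *Pou2f2*, *Prdx1*, *Psmb9*, *Ptgs1*, *Ramp3*, *Saa1*, *Serpina3f*, *Serpina3g*, *Siglecg*, *Slc7a11*, *Smpd5*, *Socs2*, *Tap2*, *Tapbpl*, *Tnfaip2*, *Zfp36* and *mt-Co3*. Counts of *Alox5*, *Ccl2*, *Ccl3*, *Cd14*, *Cd274*, *Cxcl2*, *Hmox1*, *Ifitm1*, *Il1b*, *Il5*, *Irf1*, *Lyz2*, *Mif*, *Nampt*, *Pim2*, *Prdx1*, *Socs1* and *Socs2* also passed 50% of the highest count in a library.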

How the data were processed

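Total RNA of eosinophils had been made into CEL-Seq2 libraries. The authors aligned reads to GRCm38 with TopHat2 2.1.0, counted unique reads per Ensembl gene with HTSeq 0.6.1 and deposited raw counts. They also name fastp 0.20.1 and STAR 2.7.2a without saying for which libraries. The strand setting and the collapsing of molecular identifiers are not stated. The 5 HTSeq summary lines were dropped, among them __no_feature, 20.8% to 31.7% of IFN-γ and 28.6% to 32.8% of *E. coli* libraries. IL-4 libraries and their controls were left out, since they have no part in the comparison. Counts of 12 libraries were fitted with edgeR 4.0.16 in R 4.3.3 (filterByExpr, TMM, quasi-likelihood F test, Benjamini-Hochberg adjustment over 9883 genes, called at adjusted p below 0.05), with the same fit for each stimulus against unstimulated libraries. Standard errors are the log2 difference over the root of F, an approximation, and intervals are 95%. Depth in the 6 libraries put 3 counts at 1.00 to 1.96 CPM. Ratios of genes with 1 to 3 counts in the lower group have exact counting intervals. The code was tested on simulated data.

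The members and lists were chosen with earlier results of these data known, and several lists hold genes that the paper names from them. Counts of list members are therefore descriptions and not tests. Genes were named by a rule: the 10 largest called, non-overlapping direct differences each way and the 8 largest opposite responses each way, with at least 10 CPM in the higher group. Added were the 5 largest each way among genes raised with both and among genes lowered with both. From each of 32 lists came up to 4 called members each way and members the study names. The 5 called genes of highest level each way and the 5 like-extent genes with the largest mean rise and the largest mean fall completed them. The lists had 794 entries for 787 different genes, of which 717 were tested. Alternatives were other library sets, scalings and filters, DESeq2 1.42.0, replicate number as a block, leaving out 1 library at a time, stricter thresholds, correction for identifier collisions and thinning. Gene positions came from GENCODE M21, promoters from RefSeq on GRCm38.p6.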

Additional observations from a re-analysis of the deposited data

How the results depend on the processing

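Of 257 named genes, 234 were called and 197 of them kept the call in every fit that tested them, the 2 stricter thresholds not counted. Of the 19 alternative fits, 15 to 19 tested each named gene. Another 37 lost the call in at least 1 fit, 7 of the 23 without a call gained one, and 0 called genes turned direction. With library totals only and no TMM factor, 1062 genes were higher with IFN-γ and 1937 with *E. coli*, a share of 35.4% in place of 55.2%, and the median moved by -0.15; the cause was not tested. That scaling gave 970 genes raised and 2448 lowered with IFN-γ, 150 lowered with both and lower with IFN-γ, and 202 raised and 346 lowered to a like extent. Requiring a factor of 2 left 635 and 392 direct calls, 31 and 17 opposite genes, 28 and 9 raised with both, and 15 and 21 lowered with both. It left 496 raised and 691 lowered with IFN-γ, 350 raised and 673 lowered with *E. coli*, and 25 and 24 of like extent. At adjusted p below 0.01 there were 648 genes higher with *E. coli*, 74 and 30 opposite, 68 and 29 raised with both, and 36 and 31 lowered with both. Against unstimulated cells there were then 1001 and 926 with IFN-γ, 853 and 1071 with *E. coli*, and 183 and 131 of like extent. These stricter thresholds lower counts by construction. DESeq2's Wald test gave 1309 and 861 direct calls and 55 genes lowered with both and lower with IFN-γ; the cause was not tested. Leaving out 1 library at a time, which lowers the number of samples, gave 1114 to 1467 genes higher with IFN-γ and 829 to 1156 higher with *E. coli*. Opposite genes ranged over 100 to 160 and 40 to 68, raised with both over 87 to 123 and 41 to 63, and lowered with both over 45 to 81 and 41 to 95. IFN-γ raised 1126 to 1591 and lowered 1094 to 1620, *E. coli* raised 945 to 1434 and lowered 1215 to 1615, and like extent held for 200 to 368 raised and 121 to 221 lowered genes. Replicate number as a block gave 1512 and 1212 direct calls. Correlations between libraries of equal number were -0.00220, 0.173 and -0.0163, and those of unequal number ranged from -0.0995 to 0.0946. These values do not settle whether libraries of equal number were paired. The labels state no pairing, and the numbers were not treated as pairs. The other settings kept the direct counts within 1.5 times: 1471 and 1206 with 9 libraries, 1501 and 1256 with 6, 1412 and 1095 with DESeq2 size factors, 1432 and 1156 with no filter, and 1121 and 994 with at least 10 counts in every library. A correction for identifier collisions gave 1399 and 1124, and thinning to the smallest total gave 1254 and 926. These last alternatives were chosen after the data were seen. Depth limits what can be tested: 9883 of 55029 genes passed the filter.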

Other observations

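For genes on which the stimuli had opposite effects, the mean level in cells given both was placed beside the single levels. Means were compared without a test, and libraries may overlap, as those of *Cxcl9* and *Car4* did with the IFN-γ libraries. Of 151 genes raised with IFN-γ and lowered with *E. coli*, the mean level with both stimuli lay above both single levels for 50, between them and nearer to IFN-γ for 90, nearer to *E. coli* for 10 and below both for 1. Of 73 genes raised with *E. coli* and lowered with IFN-γ, these numbers were 0, 36, 13 and 24. Nearness was measured on log2 of mean CPM plus 1. Of 206 genes higher with *E. coli* and without a call against unstimulated cells, 91 lay between and nearer to IFN-γ and 31 nearer to *E. coli*. Of 85 genes lowered with both and lower with *E. coli*, these numbers were 13 and 29. *Cxcl9* stood at 256, 357 and 450.4 CPM with both stimuli, *Car4* at 41.6, 52.6 and 37.6 CPM and *Bcl2l1* at 90.6, 98.1 and 83.1 CPM. Of 119 genes raised with both and higher with IFN-γ, 110 lay above both single levels in cells given the 2 together. Of 74 genes raised with both and higher with *E. coli*, 42 lay above both, 9 between and nearer to IFN-γ, 21 nearer to *E. coli* and 2 below both. *Irf1* stood there at 1299, 1250.3 and 1284 CPM and *Il13* at 99.3, 98.6 and 98.9 CPM.

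Some cytokines had too few counts to be tested. *Csf2*, the growth factor GM-CSF that keeps eosinophils alive, had 4, 6 and 4 counts in the *E. coli* libraries and 0 in each IFN-γ library. *Lif* had 8, 6 and 7 counts with *E. coli* and 2, 2 and 1 with IFN-γ, and *Il12a*, a subunit of IL-12 that IL-35 shares, had 2, 6 and 2 and 0 in each. No reads fell on the eotaxin gene *Ccl11* or on *Il25* and *Tslp*, cytokines that promote type 2 responses, in any library. The transcription factor *Bhlhe41* had 2, 2 and 3 counts with *E. coli* and 4, 3 and 5 with IFN-γ.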
